A study of Mus musculus with 20 samples.

Results

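Gbx2-expressing neurons of thalamic type were examined among cells taken from the mouse habenula at embryonic day 18 (E18). A well was counted as a Gbx2 well when it passed the quality limits and held at least 2 counts of Gbx2 and at least 1 count of Ntng1. This rule gave 74 Gbx2 wells among the 1082 wells kept on 5 plates of 384 wells. The comparison wells, here called Pou4f1 wells, held at least 1 count of Pou4f1 and none of Gbx2, and numbered 684. A further 284 kept wells held neither gene, and the other 40 held Gbx2 without meeting the rule.

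The study profiled single cells of the developing mouse habenula on 20 plates. C57BL/6 mice at E18 gave the 5 plates used here: the left habenula filled 2, the right habenula 2 and cells of both sides 1. No treatment is named in the labels. The title of the both-side plate gives another stage than its stage label, which reads E18 and was used. A line named Brn3a-tauLacZ, after an older name of Pou4f1, gave the other 15 plates, at E11, E12, E13, E15, E18, P4, P7 and in the adult, with 3729 of the 4811 kept wells of the series. The sources used here do not say how many mice entered a plate, their sex or whether cells were sorted. Plates are separate samples in the labels. Nothing in the labels says that they came from separate animals. With plate as a block, the p-values rest on how the difference between kinds of wells varied over plates, which may be technical. On the 5 plates of C57BL/6 mice, 14.1% to 86.7% of the 384 wells of a plate were kept. These plates use the same 384 cell barcodes by design. Among kept wells of the same number on different plates, 0 pairs had identical profiles. Only a match of every value was counted, so carry-over of some reads between plates was not tested.

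The thalamus and the habenula form side by side from the same diencephalic segment, and both hold glutamatergic projection neurons. Gbx2 encodes a homeobox factor that postmitotic thalamic neurons switch on and need for their differentiation and for the growth of their axons to the cortex. Ntng1 encodes netrin-G1, a lipid-anchored surface protein of thalamocortical axons. Id4 encodes a helix-loop-helix protein that blocks DNA binding by its partners, and Lhx2 a LIM homeobox factor of the thalamus. Pou4f1 encodes a POU homeobox factor that marks habenular neurons from early in their development.

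The Gbx2 wells were unevenly spread over the plates. They made up 14 of 283 kept wells on left plate 1 (4.95%, 95% exact binomial interval 2.73% to 8.16%) and 1 of 54 on left plate 2 (1.85%, 0.0469% to 9.89%). Right plate 1 held 11 of 279 (3.94%, 1.98% to 6.94%) and right plate 2 held 5 of 133 (3.76%, 1.23% to 8.56%). The both-side plate held 43 of 333 (12.9%, 9.51% to 17.0%), which is 43 of the 74. Its interval lies above those of left plate 1, right plate 1 and right plate 2. On that plate the Pou4f1 wells made up 41.4% of kept wells, against 67.5% to 78.9% on the other 4 plates, and the wells with neither gene 39.6%, against 16.5% to 24.1%. The boundary of the dissection was not recorded in the sources used here, so plate and dissection cannot be told apart. The share averaged 3.40% ± 2.19 (SD, n = 2 plates) on the left and 3.85% ± 0.130 (SD, n = 2 plates) on the right. An exact two-sided permutation test of left against right gave p = 1, and with 2 plates a side it could not go below 0.333. The share depends on depth: with every well thinned to 3000 UMIs before the rule it averaged 1.17% on the left and 1.15% on the right.

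**Figure D1:**
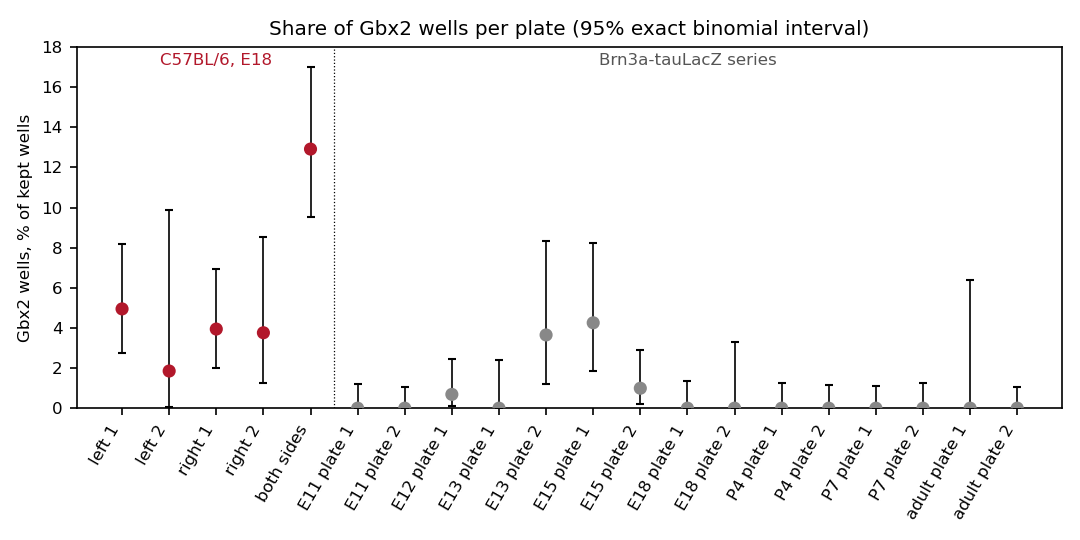
Percent of kept wells that were Gbx2 wells (vertical axis) on each of the 20 plates (horizontal axis), red for the 5 plates of C57BL/6 mice at E18 and grey for the Brn3a-tauLacZ series; bars are 95% exact binomial intervals and cover counting error only. The both-side plate stands at 12.9%, while the other 4 red points lie between 1.85% and 4.95%, and the series reaches 4.26% on E15 plate 1.

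The genes that chose the wells, and Id4 and Lhx2, which were given with them as markers, are described here without a test. Levels are in CPM, a gene's counts scaled to the total outside spike-ins, summed over the wells of a kind on a plate, and are given in the order left plate 1, right plate 1, right plate 2 and both-side plate. Gbx2 stood at 445, 391, 532 and 407 CPM in the Gbx2 wells. Ntng1 stood at 700.1, 634, 1029.8 and 1342 CPM in them and at 68.8 to 117 CPM in the Pou4f1 wells. Per well the median was 9 Gbx2 UMIs (unique molecular identifiers, lowest 2 and highest 44) and 25 Ntng1 UMIs (lowest 1 and highest 87). So most wells stood well inside the limits, with 10 wells at exactly 2 Gbx2 counts. Just outside, 21 kept wells held 1 Gbx2 count and some Ntng1, and 3 held at least 2 Gbx2 counts and no Ntng1. Summed, those 21 wells held 414 CPM of Id4 and 5769 CPM of the habenular list without Pou4f1, and the 10 wells at exactly 2 counts held 760.2 CPM of Id4 and 2785 CPM of that list.

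Id4 was high on every plate, at 1919, 1599, 1763 and 2113 CPM, against 129, 52.9, 39.4 and 76.8 CPM in the Pou4f1 wells. Lhx2 stood at 441, 448, 763 and 314 CPM, against 22.5 to 32.6 CPM. Both genes were given as markers with the rule, so these levels describe the choice of wells. Id4 had a UMI in 73 of the 74 wells and Lhx2 in 69 of them. Id4, Lhx2 and Tcf7l2, a TCF/LEF factor of the Wnt pathway that thalamic and habenular neurons share, were all detected in 68 of 74 Gbx2 wells (91.9%), in 75 of 684 Pou4f1 wells (11.0%) and in 17 of 284 wells with neither gene (5.99%). Tcf7l2 alone was detected in 98.1% of Pou4f1 wells, so this split rests on the given markers. Prox1, Foxp2, Calb2 and Rora, called higher below, were all detected in 37 (50%), 66 (9.65%) and 24 (8.45%) of these wells. Exactly 3 of the 4 were detected in 26 (35.1%), 245 (35.8%) and 105 (37.0%). The median depth was 25490 counts in the Gbx2 wells, 21037 in the Pou4f1 wells and 13199 in the wells with neither gene. After thinning every well to 3000 UMIs, Id4 kept a UMI in 93.2% of the 74 Gbx2 wells and 14.1% of the 665 Pou4f1 wells deep enough.

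Pou4f1 itself varied among the Gbx2 wells. It stood at 123, 337, 22.8 and 19.1 CPM, against 870.3, 775, 948 and 662 CPM in the Pou4f1 wells. The left plate 1 and right plate 1 values were the high ones. Pou4f1 was at 0 in 52 of the 74 wells, at 1 count in 13 and at 2 or more in 9, of which 1 lay on the both-side plate. Summed, the other habenular genes of a list of 22 were clearly higher only in the 9 wells, and not in each of these. The wells with 15 and 11 Pou4f1 UMIs held 873 and 1112 CPM of them. Without Pou4f1 that list summed to 715 CPM in the 52 wells, 742 CPM in the 13 and 3710 CPM in the 9. In 4 of the 9 wells it exceeded 2000 CPM, with Pou4f1 at 20, 26, 42 and 42 UMIs and Gbx2 at 3, 44, 2 and 3 UMIs in them, while the median of single Pou4f1 wells was 7837 CPM. Among the 52 wells without Pou4f1, 1 exceeded 2000 CPM. No doublet caller was run, and whether a well held more than 1 cell was not tested. The count of lower habenular genes below is therefore given with and without the wells that held Pou4f1, as are the values of Nr4a2 and Gpr151. Without those wells right plate 2 keeps 3 Gbx2 wells and leaves the fit too, so each such value differs in both respects and rests on 3 plates.

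**Figure D2:**
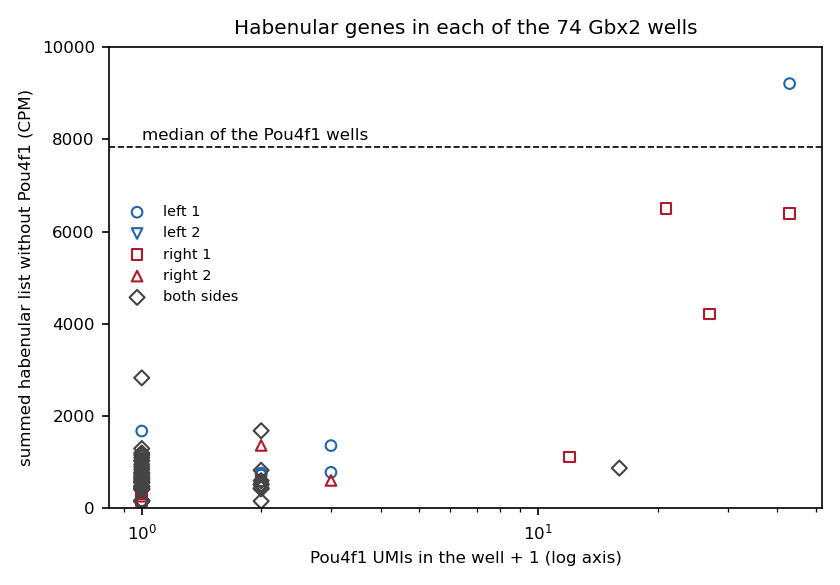
Each point is 1 of the 74 Gbx2 wells, with its Pou4f1 UMIs + 1 on a log axis (horizontal) and the summed CPM of the habenular list without Pou4f1 (vertical); shapes and colours give the plate, and the dashed line is the median of single Pou4f1 wells. Of the wells with 2 or more Pou4f1 UMIs, 4 lie above 2000 CPM, 1 of them above the dashed line, and those 4 come from left plate 1 and right plate 1.

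The first comparison asked which other genes set the Gbx2 wells apart from the Pou4f1 wells of the same plates. The summed counts of the 4 plates with at least 5 Gbx2 wells entered the fit, and left plate 2, with 1 such well, did not. In edgeR's quasi-likelihood test with plate as a block, 973 of 12346 genes were higher in the Gbx2 wells (7.88%) and 790 were lower (6.4%) at a Benjamini-Hochberg adjusted p under 0.05. The median log2 fold change of all genes tested was -0.02. Without the both-side plate 545 of 11905 were higher and 394 lower. Without the Gbx2 wells that held Pou4f1 and right plate 2, 701 of 12371 were higher and 734 lower, and without right plate 2 alone 848 and 784. With left plate 2 included 716 were higher and 751 lower, and with at least 3 counts of Gbx2 and 2 of Ntng1 916 and 922, so which direction held more genes depended on these choices. The plates of the 2 kinds of wells did not overlap for 2133 of the 12346 genes, against which each statement of no overlap is to be read. The wells were chosen by genes measured in the same libraries, so these counts describe the separation that the rule makes.

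Sp9, a zinc finger transcription factor of the Sp family, had the largest fold change among the named higher genes. It stood at 75.4, 63.8, 75.9 and 64.6 CPM in the Gbx2 wells and at 1.59, 0.442, 0 and 0.935 CPM in the Pou4f1 wells (log2 fold change 6.43 ± 0.46 SE, adjusted p = 2.22e-08). The groups did not overlap, and the Gbx2 wells of the 4 plates were close to each other. Sp9 stood so low in the Pou4f1 wells that it could pass the count filter only through the Gbx2 wells. Its direction and lack of overlap were therefore set by the filter. A count of Sp9 was present in 48.6% of Gbx2 wells and 1.17% of Pou4f1 wells, and after thinning in 17.6%, 0.602% and, of the wells with neither gene, 1.24%. Sp9 (ENSMUSG00000068859) lies at chr2:73271925-73284706 on the plus strand of GRCm38. Because it led the list and because Tcf7l2 was high in these wells, the 250 bases before its RefSeq start are printed (chr2:73271676-73271925, GRCm38.p6, plus strand, 5′ to 3′). Capitals mark the core TCAAAG, which is CTTTGA, bound by TCF/LEF factors, read on the other strand, 22 bases before the start.
Sp9: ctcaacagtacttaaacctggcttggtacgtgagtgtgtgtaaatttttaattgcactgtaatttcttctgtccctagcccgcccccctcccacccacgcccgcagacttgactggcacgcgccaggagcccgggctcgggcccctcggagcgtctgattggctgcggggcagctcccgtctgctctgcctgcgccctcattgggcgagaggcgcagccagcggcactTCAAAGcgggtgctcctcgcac
Either strand of CTTTGA was present in this window in 13.8% of the 32851 promoters of the RefSeq table. Per gene, it was present for 14.4% of the 679 higher genes with an entry, 12.2% of the 588 lower ones and 12.4% of the 9000 tested. The match is a description of these letters and not of a binding site.

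The other named higher genes differed by over 3.9 on the log2 scale. Mylk, the myosin light chain kinase of smooth muscle and other cells, stood at 100.5, 90.7, 121 and 170.0 CPM against 0.354 to 4.42 CPM (log2 fold change 5.40 ± 0.37 SE, adjusted p = 1.47e-08). Gas7, a cytoskeletal protein of growing neurites, stood at 173, 148, 167 and 162 CPM against 9.36 to 14.4 CPM (3.98 ± 0.21, adjusted p = 6.67e-10). Both genes were called against the wells with neither gene too. Adamts19, a secreted metalloproteinase, varied more, at 80.4, 168, 167 and 29.8 CPM against 3.76 to 9.56 CPM (4.34 ± 0.36, adjusted p = 1.38e-07). Synpo2, Lmo7, Pamr1, Cpne7, Trbc2, Ajap1, Slitrk6 and Kcnk13 were higher by 3.97 to 4.55 on the log2 scale. Among these, Synpo2 and Lmo7 code for actin-associated proteins, Ajap1 and Slitrk6 for membrane proteins of junctions and synapses, and Kcnk13 for a potassium channel. Over all Pou4f1 wells the genes listed from Synpo2 to Kcnk13 stood at 0.965 to 3.26 CPM. Like Mylk, they passed the count filter only or mainly through the Gbx2 wells, which largely set their direction. Sp9, Mylk, Synpo2, Gas7, Kcnk13 and Cpne7 overlap other annotated genes, and whether the counting used strand is not given, so part of their counts could belong to those genes.

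Of the 20 genes on a thalamic neuron list, 4 had served to choose or mark the wells and 13 of the others had enough counts to be tested. Of the 13, 8 were higher, 3 lower and 2 not called, with a median log2 fold change of 1.32, where 7.88% of all genes tested were higher and 6.4% lower. Without the both-side plate 5 were higher and 2 lower, and without the Gbx2 wells that held Pou4f1 and right plate 2, 7 were higher and 3 lower. Prox1, a homeobox factor, stood at 943, 586, 902 and 630.5 CPM against 99.1, 114, 107 and 96.7 CPM (2.91 ± 0.16, adjusted p = 6.67e-10). Foxp2, a forkhead factor of the posterior thalamus, stood at 607, 283, 914 and 1187 CPM against 266, 209.5, 122 and 164 CPM (1.94 ± 0.30, adjusted p = 0.000128). Both were higher on all 4 plates, with right plate 1 the low plate for each. Tcf7l2 stood at 3265, 3193, 5118 and 4528 CPM against 1454 to 1534 CPM (1.47 ± 0.13, adjusted p = 2.83e-07). Calb2, the calcium-binding protein calretinin, stood at 262, 564, 765 and 842 CPM against 182 to 232 CPM (1.56 ± 0.20, adjusted p = 2.18e-05).

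Other thalamic genes depended on the plate. The cadherin Cdh6 stood at 70.3 and 80.6 CPM on left plate 1 and right plate 1 and at 380.5 and 349 CPM on right plate 2 and the both-side plate, against 36.8 to 96.5 CPM in the Pou4f1 wells. Rorb, a nuclear receptor of sensory thalamus, stood at 52.7, 43.7, 53.1 and 268 CPM against 31.6 to 50.2 CPM, so the both-side plate carried its difference. Rorb, Cdh6 and Prkcd were not called without that plate. Rora, a related nuclear receptor, stood at 204, 276, 106 and 416 CPM against 103 to 199 CPM and was higher (1.00 ± 0.18, adjusted p = 0.000788), with ranges that overlapped. The 3 lower genes were Lef1, at 42.3 to 106 CPM against 205 to 302 CPM (-1.89 ± 0.17, adjusted p = 5.17e-07), Etv1 and Nr2f2. Lef1 is the other TCF/LEF gene of the list, so Tcf7l2 and Lef1 differed in opposite directions. Lhx9, the LIM homeobox partner of Lhx2, did not separate the wells, at 778, 901, 791 and 919 CPM against 888, 896, 805 and 784 CPM (0.07 ± 0.13, adjusted p = 0.798). It did differ from the wells with neither gene, which held 137 to 339 CPM (2.01 ± 0.25, adjusted p = 0.000142).

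**Figure D3:**
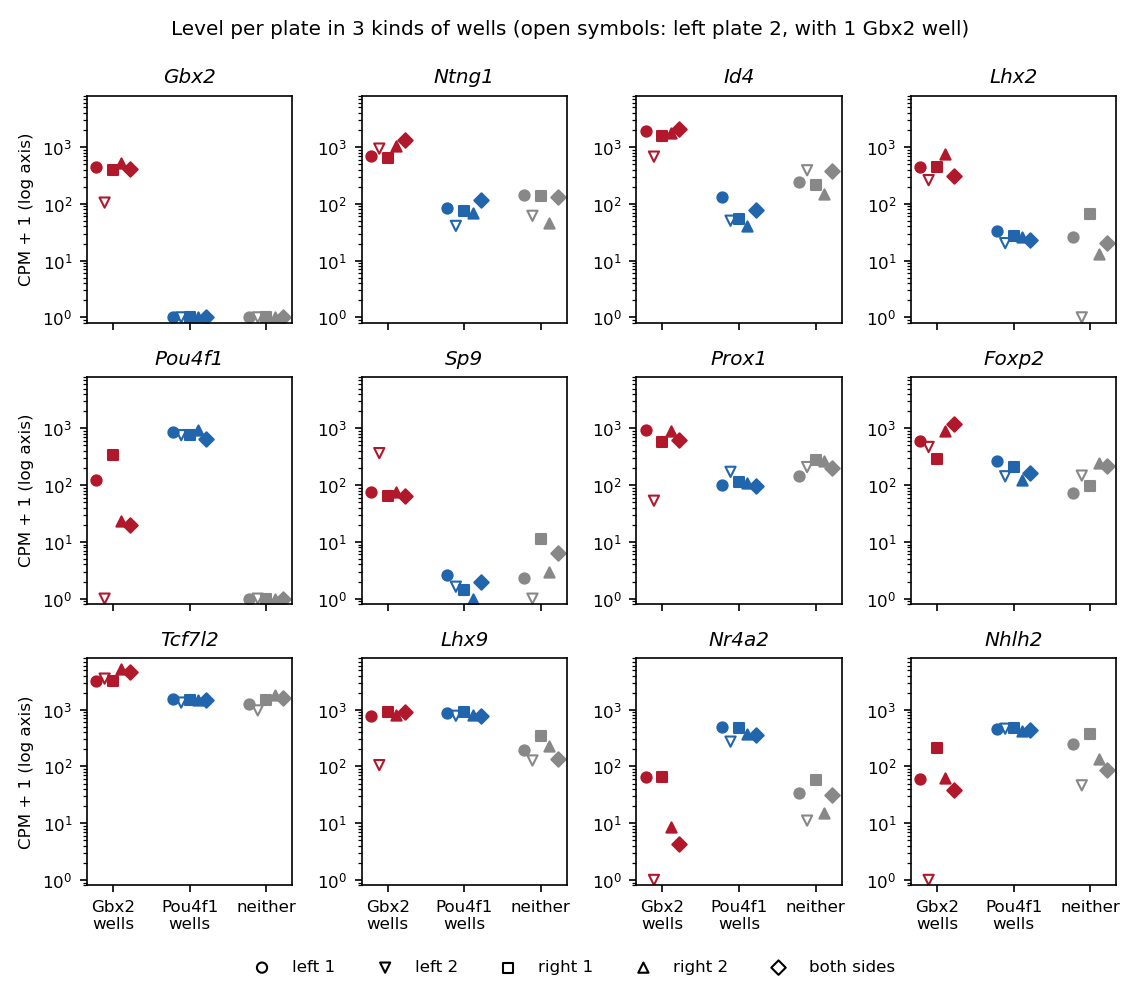
Level of 12 genes in CPM + 1 on a log axis (vertical) in Gbx2 wells, Pou4f1 wells and wells with neither gene (horizontal), 1 symbol per plate; open symbols are left plate 2, which has 1 Gbx2 well. The filled symbols of Sp9 and Prox1 in the Gbx2 wells lie above those of the other wells, Lhx9 is level between Gbx2 and Pou4f1 wells, and Pou4f1 in the Gbx2 wells ranges from 19.1 to 337 CPM over the filled symbols.

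The habenular genes were low in the Gbx2 wells. Of the 19 tested genes of that list, 17 were lower, Pcdh10 was higher and Htr2c was not called (median log2 fold change -2.91). Of all genes tested, 6.4% were lower and 7.88% higher. Without the wells that held Pou4f1 and right plate 2, 16 of 20 were lower, beside 734 of 12371 of all genes. Without the both-side plate 14 of 19 were, beside 394 of 11905. Etv1 is on this list and on the thalamic one. The list was assembled for the habenula and the comparison wells were selected on Pou4f1, so its direction is not independent of the rule. Summed over the list, Pou4f1 included, the Gbx2 wells held 1928, 2944, 737 and 712 CPM and the Pou4f1 wells 8592 to 8873 CPM. The wells with neither gene held 755 to 1557 CPM. On right plate 2 and the both-side plate the Gbx2 wells stood below that range, and on the other plates of the fit above it. Pou4f1 defined both kinds of comparison wells, so these sums rest partly on the rule. Without Pou4f1, the list summed to 7898 CPM over all Pou4f1 wells. It then summed to 2785 CPM in Gbx2 wells with 2 Gbx2 counts and to 1046 CPM in those with more.

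Nr4a2, a nuclear receptor of medial and lateral habenula, stood at 62.8, 63.8, 7.58 and 3.31 CPM against 486, 484, 376 and 352 CPM (-3.86 ± 0.36, adjusted p = 7.19e-07). Nhlh2, a helix-loop-helix factor, stood at 60.2, 209, 60.7 and 38.1 CPM against 414 to 473 CPM (-2.47 ± 0.28, adjusted p = 4.33e-06). Gpr151, an orphan receptor of habenular neurons, stood at 0, 20.2, 0 and 2.48 CPM against 36.5 to 96.6 CPM (-4.01 ± 0.51, adjusted p = 1.77e-05). For all 3 genes right plate 1, with the most Pou4f1 in its Gbx2 wells, gave the highest value. Without the Gbx2 wells that held Pou4f1 and right plate 2, the log2 fold change was -5.53 for Nr4a2 and -5.21 for Gpr151. Without the both-side plate it was -3.12 and -3.18, and with 1 count of Gbx2 allowed -2.39 and -3.26. The neuropeptide genes Tac2 (neurokinin B), Adcyap1 (PACAP) and Cartpt were also lower. In the 74 Gbx2 wells Tac2 had 3 counts, Adcyap1 2 and Cartpt 5, against 712, 391 and 1192 in the 684 Pou4f1 wells. With so few counts the size of the difference is poorly fixed, and over the alternatives the log2 fold change ran from -8.33 to -1.91 for Adcyap1, from -5.62 to -3.28 for Tac2 and from -5.71 to -3.13 for Cartpt. Prima1, which anchors acetylcholinesterase, had no count in the Gbx2 wells and 12.5 to 25.5 CPM in the Pou4f1 wells. Against a limit of 3 counts over the Gbx2 wells of the 4 plates, it was at least 13.6-fold lower. Over the alternatives its log2 fold change ran from -8.52 to -1.86, the smallest difference with 1 count of Gbx2 allowed. Chat, the enzyme that makes acetylcholine, was likewise without a count and at least 7.25-fold lower. Neurod6, Pdgfra, Ptprq, Asic4, Fam163a and Cnih3 were also lower, each on 2 to 6 counts in the Gbx2 wells, and the fitted value of Neurod6 ran from -10.05 to -2.10 over the alternatives. The genes from Tac2 to Cnih3, with few or no counts in the Gbx2 wells, passed the count filter mainly through the Pou4f1 wells. This largely set their direction. Ptprq was not called without the both-side plate (adjusted p = 0.0513).

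**Figure D4:**
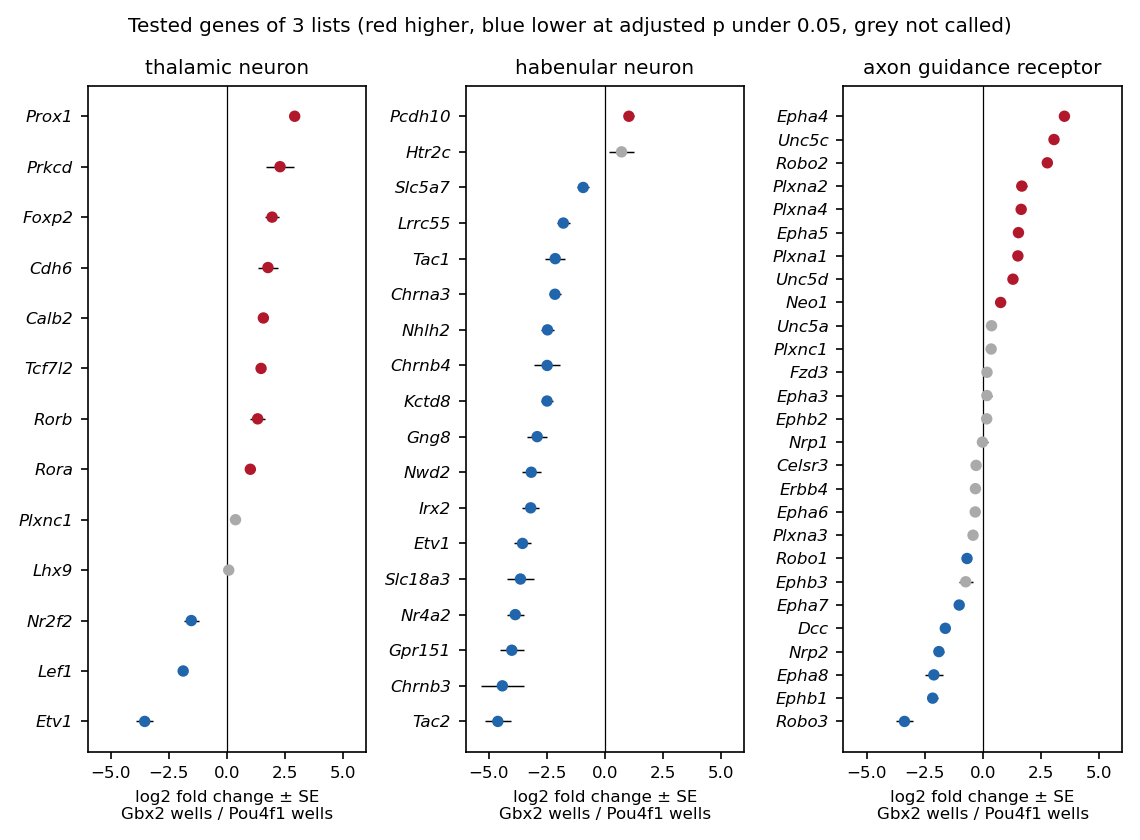
Log2 fold change of Gbx2 wells over Pou4f1 wells with its SE (horizontal) for the tested genes of the thalamic, habenular and axon guidance receptor lists (vertical), red where higher, blue where lower and grey where not called by edgeR. Chat is left out because it had no count in the Gbx2 wells. Of the 13 thalamic genes 8 are red, of the 18 habenular genes shown 16 are blue, and the guidance receptors divide into 9 red and 7 blue.

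Of the transmitter genes, Slc17a6 was detected in nearly all Gbx2 wells (97.3%) and the GABAergic ones were close to 0. Of the 8 tested against the Pou4f1 wells, 0 were higher and 5 lower (median -3.05), beside 7.88% and 6.4% of all genes. The 5 were Slc17a7, another vesicular glutamate transporter, Gad1, Gad2, Slc18a3 and Chat. Without the both-side plate 6 were tested, and Gad1, Slc18a3 and Chat were lower. After thinning to 3000 UMIs 1 gene of the list could be tested, and it was not called. Gad1, Gad2 and Chat were at or close to 0 in the Gbx2 wells. They passed the count filter mainly through the Pou4f1 wells, which largely set their direction. Slc17a6 codes for a vesicular glutamate transporter of the thalamus and habenula. It stood at 389.6, 434, 562 and 423 CPM, against 352, 401, 334 and 400.1 CPM in the Pou4f1 wells, and was not called (0.32 ± 0.14, adjusted p = 0.148). It was higher than in the wells with neither gene, at 143 to 337 CPM (1.06 ± 0.26, adjusted p = 0.0121). On a list of 16 genes of the rostral thalamus and prethalamus, the GABAergic neighbours of the thalamus, 10 were without a count in the Gbx2 wells, among them Slc32a1, Dlx1, Dlx2, Six3 and Sox14. The list summed to at most 12.5 CPM in the Gbx2 wells of a plate and to 65.6 to 356 CPM in the wells with neither gene. The 2 of them with enough counts to test, Gad1 and Gad2, were lower than in the Pou4f1 wells. Of 12 telencephalic genes, 5 were without a count, including Emx1 and Emx2. Of the 5 tested, 3 were lower, beside 6.4% of all genes.

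Markers of most other cell types were low. Summed microglial genes reached 22.8 CPM, ependymal and choroid plexus genes 60.5 CPM, vascular genes 98.6 CPM and progenitor and cell cycle genes 80.3 CPM at most in the Gbx2 wells of the 4 plates. Radial glia and astrocyte genes summed to 525 to 794 CPM, against 699 to 1067 CPM in the Pou4f1 wells and 3086 to 6798 CPM in the wells with neither gene. Of the 10 glial genes tested against the Pou4f1 wells, 5 were lower and 1 higher. Of all genes tested, 6.4% were lower and 7.88% higher, beside which the edgeR counts here and below are to be read. The higher glial gene, Slc1a2, a glutamate transporter of astrocytes, stood at 191, 384, 235 and 189.8 CPM against 109.5 to 142 CPM. Of 7 oligodendrocyte lineage genes tested, 4 were lower and Mbp, which codes for a myelin protein, was higher, at 34.8 to 68.3 CPM against 14.0 to 21.5 CPM. Their part in other differences was not tested. The erythroid list, mostly haemoglobin genes, ran from 22.4 to 940.3 CPM in the Gbx2 wells, and over the same 4 plates reached 2514 CPM in the Pou4f1 wells (19803 CPM on left plate 2) and 123023 CPM in the wells with neither gene of left plate 1. All 4 haemoglobin genes tested were lower in the Gbx2 wells than in the Pou4f1 wells by edgeR, and 1 of the 4 by DESeq2. The part of haemoglobin RNA in other differences was not tested. Among 22 kept wells with at least 10% of counts from haemoglobin, Gbx2 had a count in 2, Ntng1 in 0 and Pou4f1 in 7. At the median of 7493 counts in these wells, the 0 allows up to 13.6% of wells with an Ntng1 UMI and does not limit the share of cells that express it. Wells that failed the quality limits held Gbx2 in 1 of 101 on left plate 1, in 1 of 51 on the both-side plate and in 0 on the other 3 plates. Limits and intervals cover counting error only.

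Genes for axon growth and guidance differed in both directions. Gap43, a growth cone protein, stood at 2294, 1740.0, 1859.8 and 2641 CPM against 477 to 670.2 CPM (1.96 ± 0.14, adjusted p = 2.22e-08). The neurofilament gene Nefm stood at 40.2, 454, 91.1 and 169 CPM against 29.9 to 51.4 CPM and was higher (2.03 ± 0.34, adjusted p = 0.000376), with right plate 1 far above the others and left plate 1 inside the range of the Pou4f1 wells. Of 27 guidance receptors tested, 9 were higher, 7 lower and 11 not called, beside 7.88% and 6.4% of all genes. The same counts were found without the both-side plate, and 9 and 8 without the wells that held Pou4f1 and right plate 2. The median of the list was 0.17 on the log2 scale, against -0.02 for all genes. Without the both-side plate both medians were -0.04, so the list then stood level with all genes. Without the wells that held Pou4f1 and right plate 2 they were 0.09 and -0.08.

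The Robo receptors, which bind or modulate responses to Slit proteins, differed in both directions. Robo2 stood at 777, 466, 655 and 517 CPM against 70.9, 71.3, 92.2 and 135 CPM (2.78 ± 0.19, adjusted p = 1.71e-08). Robo3 stood at 126, 74, 15.2 and 14.1 CPM against 572, 468, 749.8 and 494 CPM (-3.37 ± 0.35, adjusted p = 1.88e-06). Robo1 was lower to a lesser extent, at 1032, 1679.9, 1051 and 1131 CPM against 1901 to 2173 CPM (-0.67 ± 0.13, adjusted p = 0.00167). For all 3 genes the 2 kinds of wells did not overlap over the plates. Of their ligands, Slit3 was higher, at 68.3 to 154 CPM against 27.0 to 61.5 CPM (1.65 ± 0.24, adjusted p = 9.34e-05), Slit2 was lower, at 142 to 286 CPM against 423 to 499.7 CPM (-1.24 ± 0.17, adjusted p = 4.72e-05), and Slit1 was not called.

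Netrin receptors also differed in both directions. Unc5c, a receptor for repulsion from netrin-1, stood at 393, 465, 395 and 543 CPM against 52.2 to 58.7 CPM (3.07 ± 0.15, adjusted p = 3.42e-10), and Unc5d was higher by 1.30 ± 0.15. Neo1, a relative of Dcc, was higher as well, at 208, 158, 129 and 173 CPM against 96.5 to 113 CPM (0.77 ± 0.17, adjusted p = 0.00345). Dcc, the receptor for attraction, stood at 633, 1390.3, 433 and 926 CPM against 2164 to 3068 CPM (-1.61 ± 0.17, adjusted p = 2.95e-06). Among the Eph receptors, Epha4 stood at 231, 199, 213 and 182 CPM against 12.4 to 25.9 CPM (3.52 ± 0.21, adjusted p = 2.18e-09) and Epha5 was higher by 1.54 ± 0.14. Epha7, Epha8 and Ephb1 were lower, by 1.01 to 2.15 on the log2 scale, and Epha3, Epha6, Ephb2 and Ephb3 were not called. The semaphorin co-receptor Nrp2 was lower, at 510.0, 478, 251 and 175 CPM against 1196 to 1401 CPM (-1.89 ± 0.21, adjusted p = 4.13e-06), while Plxna1, Plxna2 and Plxna4 were higher by 1.52 to 1.69. Of the netrin-G ligands, Ntng2 ran opposite to the Ntng1 of the rule, at 5.02, 16.8, 0 and 2.48 CPM against 43.6 to 96.8 CPM (-3.72 ± 0.47, adjusted p = 1.8e-05). Lrrc4c, the partner of netrin-G1, was not called (0.01 ± 0.15).

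Of 26 adhesion genes tested, 12 were higher, 4 lower and 10 not called (median 0.56), beside 7.88% higher and 6.4% lower of all genes; without the both-side plate 9 were higher and 3 lower, and without the wells that held Pou4f1 and right plate 2, 10 and 3. The contactins Cntn3, Cntn4, Cntn5 and Cntn6, immunoglobulin-type surface proteins of axons, were all higher. Cntn4 stood at 239, 513, 776 and 732 CPM against 52.8 to 63.7 CPM (3.21 ± 0.20, adjusted p = 3.63e-09). Cntn6 stood at 50.2, 118, 365 and 248 CPM against 20.6 to 32.1 CPM (2.77 ± 0.27, adjusted p = 8.87e-07). Like Cdh6, both were low on left plate 1 and high on right plate 2 and the both-side plate. Cntn2 was lower, at 22.8 to 118 CPM against 232 to 405 CPM (-1.83 ± 0.20, adjusted p = 3.96e-06). Chl1 and L1cam, cell adhesion molecules of the L1 family, were higher by 2.09 ± 0.18 and 1.09 ± 0.14, and their relative Nrcam was not called.

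Helix-loop-helix and LIM factors were read beside Id4 and Lhx2. Of 17 tested helix-loop-helix genes other than Id4, 9 were lower and 8 were not called (median -1.41), beside 6.4% of all genes lower, and without the both-side plate 6 of 14 were lower, beside 394 of 11905. The lower genes included Neurod1, Neurod2, Neurod4 and Nhlh2, which drive neuronal differentiation, and the widely expressed Tcf4 and Tcf12. Tcf4 stood at 249, 313, 175 and 146 CPM against 557 to 673 CPM (-1.41 ± 0.16, adjusted p = 6.53e-06). Of the other Id genes, Id3 was lower, and Id1 and Id2, at 10.8 CPM or less in the Gbx2 wells, were not called. Among LIM cofactors, Ldb2, a partner that bridges LIM homeobox proteins, stood at 345, 360.2, 236 and 502 CPM against 38.7 to 49.8 CPM (3.06 ± 0.18, adjusted p = 1.94e-09). Ldb1, Lmo1 and Lmo3 were lower, with Lmo1 at 0 to 27.6 CPM against 82.0 to 133 CPM. Ldb1 was not called without the both-side plate, without the wells that held Pou4f1 and right plate 2, or after thinning. Of 7 tested genes of the Wnt and TCF list, Tcf7l2 and Nkd1, a feedback inhibitor of Wnt signalling, were higher and Lef1 was lower.

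The wells with neither gene, a mixture in which glial genes were high, formed the second comparison on the same plates. Of 9114 genes tested, 866 were higher in the Gbx2 wells (9.5%) and 843 lower (9.25%). Without the both-side plate the counts were 189 and 307. The Gbx2 wells were deeper, with a median of 25490 against 13199 counts, and after thinning to 3000 UMIs 248 of 2180 genes were higher and 250 lower. Sp9, Ankrd34b, Cpne7, Mylk and Trbc2 led the higher genes, with Sp9 at 1.31 to 10.3 CPM in the wells with neither gene (3.81 ± 0.44, adjusted p = 9.39e-05). The lower genes were led by Inppl1 and Plod1, without a count in the Gbx2 wells, and by Pdgfra, Pla2g7 and Pdlim3. Pdgfra, a receptor of oligodendrocyte precursors, stood at 2.51, 0, 0 and 0.828 CPM against 108 to 294 CPM (-7.05 ± 0.42, adjusted p = 1.4e-06). Sp9 could pass the count filter only through the Gbx2 wells, and Inppl1, Plod1 and Pdgfra only through the wells with neither gene. The directions of these genes were therefore set by the filter. On the thalamic list 6 of 13 genes were higher, 3 lower and 4 not called (median 0.53), and Rora and Rorb were not among the higher ones. Pan-neuronal genes were higher in 8 of 12 cases and not called in 4. Against the Pou4f1 wells 5 of the 12 were higher and Snap25 and Elavl4 lower, beside 7.88% and 6.4% of all genes there. The radial glia and astrocyte genes were lower in 8 of 9. On the habenular list, Nwd2 and Kctd8 were higher and Nhlh2 and Irx2 lower in the Gbx2 wells than in these wells. Both comparisons use the Gbx2 wells, so their values are set side by side only.

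The same rule found 18 wells in the Brn3a-tauLacZ series, which had no part in making it. They were 2 of 291 kept wells at E12, 5 of 137 on E13 plate 2 (3.65%, 1.20% to 8.31%), 8 of 188 on E15 plate 1 (4.26%, 1.85% to 8.21%) and 3 of 302 on E15 plate 2 (0.993%). No well met it at E11, on E13 plate 1, at E18, P4 or P7, or in the adult. The 2 E18 plates of this line held 0 of 267 and 0 of 110 kept wells, which at their depth allow up to 1.12% and 2.73% of wells that meet the rule and do not limit the share of cells that express the genes. These plates were shallower, with medians of 10756 and 8631 counts in their Pou4f1 wells, against 17824 to 40683 counts on the 5 plates of C57BL/6 mice. The shares of the 2 sets are therefore not compared. Summed over all kept wells, Gbx2 stood at 0.399 CPM (1 count) on the first of these plates. It had no count on the second, where 3 counts would be 2.26 CPM. On the plates of C57BL/6 mice it stood at 32.7 CPM on left plate 1, 2.16 on left plate 2, 21.4 on right plate 1, 21.1 on right plate 2 and 77.9 on the both-side plate. In value, 4 of the 5 stood above both E18 plates of the line, and left plate 2 below the 3-count level of the second. On E13 plate 2 and E15 plate 1 of the line Gbx2 stood at 43.6 and 38.6 CPM. On its first E18 plate Id4 (307 CPM), Ntng1 (53.9), Sp9 (9.18) and Foxp2 (162) stood inside the range of the 5 plates. On its second they stood below it (1.51, 8.29, 0.753 and 40.7 CPM). Kept wells of the first were 28.1% Pou4f1 wells and 71.5% wells with neither gene, so the mix of wells differed too. The line differs between the sets as a whole, and its part was not tested.

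On E13 plate 2 and E15 plate 1, the 2 plates with at least 5 such wells, the fit had 1 residual degree of freedom, and 18 of 8418 genes were called (0.214%), 7 higher and 11 lower. Without plate as a block 0 were called by edgeR (585 at an unadjusted p under 0.05, and 32 genes by DESeq2 with the block), so every call below rests on the block. Sp9 was higher again, at 202 CPM against 1.02 CPM at E13 and at 182 CPM against 2.01 CPM at E15 (6.77 ± 0.70, adjusted p = 0.0101). Chl1 stood at 461 against 12.3 CPM and at 638 against 10.1 CPM (5.63 ± 0.48, adjusted p = 0.00295). Rnf220, a ubiquitin ligase, stood at 490.1 against 47.0 CPM and at 2098 against 48.9 CPM (4.49 ± 0.59, adjusted p = 0.0273). Dab1, the adaptor of Reelin signalling, Pdzrn3 and Plxna2 were higher as well. At E18 all of these were also higher in the Gbx2 wells, with Dab1 at 537, 641, 502 and 673 CPM against 51.0 to 93.5 CPM and Rnf220 at 494, 705, 899 and 896 CPM against 74.7 to 111 CPM. In the series Sp9, Chl1 and Pdzrn3, at 17.4 CPM or less in the Pou4f1 wells, could pass the count filter only through the Gbx2 wells. Their direction there was set by the filter. Irx2, Robo3, Tac1 and Nwd2 were lower in both sets. Ppp2r2b, a phosphatase subunit, was lower in the series (-3.76 ± 0.52, adjusted p = 0.0309) and not called at E18 (0.31 ± 0.15, adjusted p = 0.197), and the difference between the sets was not tested.

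The 14 genes of the thalamic list tested in the series were not called (median log2 fold change 0.36), and those higher at E18 differed among themselves there. Foxp2 stood at 692 against 244 CPM at E13 and 1499.7 against 389 CPM at E15, and Tcf7l2 at 4635 against 1682 CPM and 6683 against 4345 CPM. Rora stood at 173 against 95 CPM and 228 against 52.3 CPM. These 3 genes were higher in value on both plates without being called (adjusted p 0.156, 0.58 and 0.521). Prox1 stood at 28.8 against 23.5 CPM at E13 and 63.7 against 55.6 CPM at E15 (0.26 ± 0.68, adjusted p = 0.997). Calb2 stood at 57.6 against 296 CPM and 36.4 against 51.1 CPM and was not called. Of the 12 genes named as higher at E18, 3 had enough counts to be tested in the series. All 3 had a positive log2 fold change and 1 was called. A gene low in the Pou4f1 wells could pass the count filter only through the Gbx2 wells, so its positive sign was set by the filter. This holds for Sp9 and for Adamts19, at 57.6 against 4.09 CPM at E13 and 54.6 against 6.70 CPM at E15. Mylk was lower at E13, at 43.2 against 131 CPM, and higher at E15, at 81.9 against 4.02 CPM. Of all 973 higher genes, 619 were tested there and 65.1% were positive. Of the 790 lower genes, 566 were tested and 25.6% were positive, against 44.8% of all 8288 genes tested in both sets. The count filter set the sign of some of these genes, Sp9, Adamts19, Chl1 and Pdzrn3 among them, so the shares rest partly on it. On simulated data this fit recovered 9 of 92 genes changed by 1.5 on the log2 scale and 64 of 94 changed by 3, so most differences of the smaller size would be missed with 13 Gbx2 wells.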

How the data were processed

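CEL-seq2 libraries of single cells in 384-well plates were analysed. The values deposited by the authors are expected counts, that is, unique molecular identifier counts per gene and well corrected for collisions among 4096 tags. All of them inverted to whole numbers. Per the submitters' processing notes, reads were trimmed with Trim Galore and aligned to mm10 with STAR 2.5.3a. The sources used here do not name the counting program or say whether it used strand. A well was kept if it had 1000 or more counts (spike-ins and mitochondrial genes not counted), 500 or more detected genes and a mitochondrial share of 20% or less. Counts were summed per plate and kind of well, rounded, and tested with edgeR 4.0.16 (quasi-likelihood, TMM, filterByExpr, plate as block), with DESeq2 1.42.0 as an alternative and Benjamini-Hochberg adjustment at 0.05. A plate needed 5 wells of each kind. Named genes were the 12 with the largest fold change in each direction among called genes with a mean of at least 20 CPM in the higher group and 1 direction on every plate, without predicted, ribosomal protein and mitochondrial genes. For the other 2 comparisons, 5 were named in each direction. Genes of the lists were named in addition. The steps were tested on simulated data. Gene coordinates are from GENCODE (GRCm38) and the promoter from RefSeq (GRCm38.p6). Members and lists were chosen with earlier results of these data known.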

Additional observations from a re-analysis of the deposited data

Results flagged for a closer look

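The both-side plate stood apart in its share of Gbx2 wells, 12.9% of kept wells, with a gap to the next plate larger than Dixon's limit for 5 samples. In the difference between Gbx2 and Pou4f1 wells on the log2(CPM + 1) scale, right plate 1 stood apart from the other 3 plates for 2 genes. For Gas7 it gave 3.28, the lowest of the 4, and for Fam163a it gave -1.35, the smallest deficit of the 4. Dixon's test was run on 25 sets of values, and chance marks about 1 in 20.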

How the results depend on the processing

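Against the Pou4f1 wells 1763 genes were called, and 538 of 4830 tested after thinning every well to 3000 UMIs, which leaves fewer genes to test. Leaving out a plate gave 939 to 1632, the lowest without the both-side plate. Against the wells with neither gene 1709 were called, 498 of 2180 tested after thinning, and 496 to 1797 with a plate left out, again lowest without the both-side plate. In the series 18 were called, 32 by DESeq2, 31 with its size factors, and 124 without a filter on low counts. Without the replicate block there were 0 (585 at an unadjusted p under 0.05), and the block changed the other comparisons to 1406 and 1190 calls when dropped. Without the filter, higher genes made up 39.0% of calls in place of 55.2% against the Pou4f1 wells and 37.3% in place of 50.7% against the wells with neither gene. Left minus right in the share of Gbx2 wells was -0.452 percentage points, -1.55 with at least 3 counts of Gbx2 and 2 of Ntng1, and reversed to 0.253 with 1 count of Gbx2 allowed and to 0.0218 with thinned wells. The cause was not tested. Of 492 values of named genes that could be tested under alternatives (2 of them after thinning), 11 lost the call, namely Ptprq without the both-side plate and the 10 genes named in the series without the block. The named genes were chosen for 1 direction on every plate, so a kept direction is no sign of stability, and the fitted sizes of lower genes with few counts moved widely. Left and right were not compared within the Gbx2 wells, since left plate 2 held 1, and no plate could be left out of the series fit.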
